A study of Mus musculus with 9 samples.

Results

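The 8 genes described here encode secreted signals: the colony-stimulating factor genes Csf1, Csf2 and Csf3, the interleukin-6 family genes Il6, Il11, Lif and Osm, and the tumour necrosis factor gene Tnf. They were picked by symbol from the 35321 genes of the table, and all 8 were found. The tumours grew from LLC (Lewis lung carcinoma) cells, a line of C57BL/6 origin, injected under the skin of the right flank of male C57BL/6 hosts that were 4 to 5 weeks old. From day 5 the hosts received intraperitoneal PBS as vehicle (libraries V1 to V3), a low dose of digoxin of 0.1 mg/kg (L1 to L3) or a high dose of 1 mg/kg (H1 to H3). Digoxin, a drug of the cardiac glycoside class, blocks the sodium-potassium pump. No label ties the 3 libraries of a group to different hosts, and the p-values therefore describe only the spread between these libraries, which may be technical.

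These cytokines carry signals between immune, stromal and tumour cells. Colony-stimulating factors govern the growth and survival of myeloid cells: Csf1 encodes M-CSF, which acts on macrophages, Csf2 encodes GM-CSF, and Csf3 encodes G-CSF, which acts on neutrophils. Interleukin-6 family ligands signal to JAK kinases and STAT3 through the shared receptor chain gp130, the product of Il6st. TNF signals through TNFR1 and TNFR2 to NF-κB, and many of these messages are short-lived because they carry AU-rich elements.

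Values are FPKM, fragments or reads scaled by gene length and library size, so levels of different genes can be compared per length. Library depth, recovered from the spacing of the values, was 48649867 to 51810956 reads in vehicle libraries. It was 42870997 to 43319883 reads at the low dose and 40517062 to 42252370 at the high dose. Every vehicle library was thus deeper than every digoxin library. This depth is the library size behind the FPKM values, and 99.6% to 99.8% of it lay in genes. All 8 genes were among the 13687 tested, which reached 1 FPKM in 3 or more libraries. Csf2 and Il6 stayed below 1 FPKM in every vehicle library, and Il11 reached it in V2 only among vehicle libraries. Csf2, Il6 and Il11 were therefore tested only because of their digoxin values, so counts over the 8 genes are a description. Differences are in log2(FPKM + 1), a scale that compresses changes of weakly expressed genes, and were tested with limma. A gene was called when its Benjamini-Hochberg adjusted p over all tested genes was under 0.05. Libraries L2 and H1 stood apart. Over genes, which are not independent, L2 correlated with L1 and L3 at 0.962 and 0.964 (L1 with L3, 0.984), and H1 with H2 and H3 at 0.953 and 0.958 (H2 with H3, 0.990).

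Osm, Tnf and Csf2 rose at both doses. In high-dose tumours mean FPKM was 8.91 times that of vehicle for Osm, 8.11 times for Tnf and 7.26 times for Csf2, and Il6 (3.49 times) and Csf1 (1.66 times) rose too. Single libraries set some of these ratios: without H1 that of Tnf was 4.53, and without V1 that of Csf2 was 11.2 (at the low dose 6.61 in place of 4.30). Il11, Lif and Csf3 were not called at either dose. At the high dose 5 of 8 members were called, all higher, where 45.9% of tested genes were called (20.7% higher, 25.2% lower). Values of the same 5 members lay wholly above those of vehicle, as did those of 25.2% of tested genes, while 33.1% lay wholly below. At the low dose 3 of 8 were called, all higher, where 42.2% of tested genes were called (21.6% higher, 20.7% lower). There 5 members lay wholly above vehicle, against 32.3% of tested genes, and 27.9% lay wholly below. The members' median log2 difference was 0.79 at the high and 0.51 at the low dose, and that of all tested genes −0.04 and 0.02. Both doses were compared with the same vehicle libraries.

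**Figure D1:**
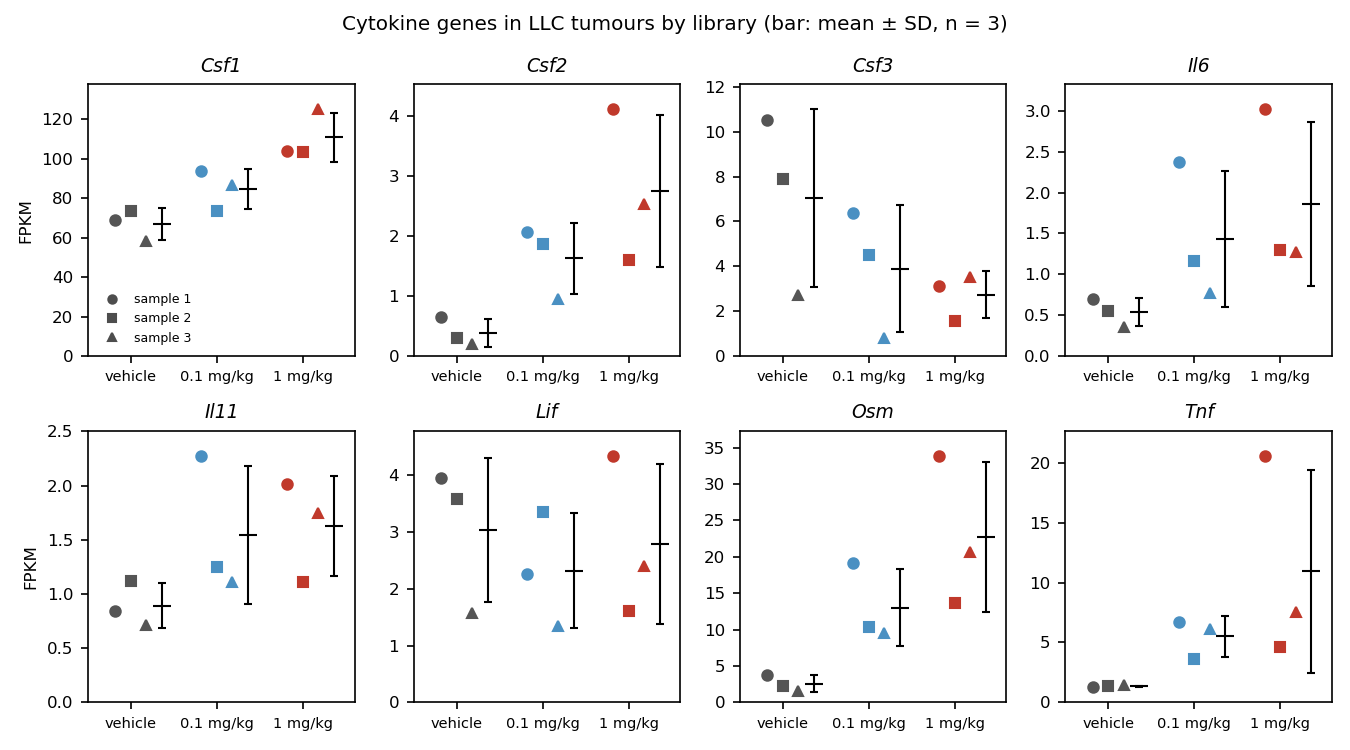
FPKM of the 8 cytokine genes (vertical axes, each from 0) in the 3 libraries of each group (points), with the group mean ± SD. Every digoxin library lies above every vehicle library for Osm, Tnf, Csf2, Il6 and Csf1, while the groups overlap for Lif, Csf3 and Il11.

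Osm encodes oncostatin M, a product mainly of myeloid and T cells. It measured 3.81, 2.29 and 1.55 FPKM in V1 to V3, 19.2, 10.3 and 9.58 FPKM in L1 to L3, and 33.9, 13.6 and 20.7 FPKM in H1 to H3. Digoxin and vehicle values did not overlap, and the first library was the highest of each group. The log2 difference was 1.97 at the low dose (SE 0.37, limma adjusted p = 0.00465) and 2.70 at the high dose (SE 0.37, limma adjusted p = 0.00119). Osm passed in all 18 alternative analyses at either dose.

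Tnf, whose product macrophages release early in inflammation, measured 1.29, 1.34 and 1.41 FPKM in V1 to V3, 6.75, 3.59 and 6.15 FPKM in L1 to L3, and 20.6, 4.66 and 7.56 FPKM in H1 to H3. Vehicle values were close together and below all others, and H1 was far above H2 and H3. The log2 difference was 1.43 at the low dose (SE 0.42, limma adjusted p = 0.0262) and 2.11 at the high dose (SE 0.42, limma adjusted p = 0.00504). The high-dose call held in all 18 alternatives and was 1.57 without H1 (limma adjusted p = 0.00187). The low-dose call was lost without V1, V2, V3, L1 or L3, each left out alone (limma adjusted p from 0.0685 to 0.085), and with no expression filter (0.0703).

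Csf2 was the lowest member in vehicle tumours. It measured 0.642, 0.30 and 0.193 FPKM in V1 to V3, from 25, 12 and 8 reads. In L1 to L3 it measured 2.07, 1.86 and 0.952 FPKM (71, 64 and 33 reads), and in H1 to H3 4.11, 1.60 and 2.53 FPKM (139, 52 and 82 reads). All digoxin values were above all vehicle values. The log2 difference was 0.92 at the low dose (SE 0.27, limma adjusted p = 0.0255) and 1.40 at the high dose (SE 0.27, limma adjusted p = 0.00425). A pseudocount of 0.1 gave 1.90 and 2.59, and limma-voom on recovered reads 2.17 and 2.90, all called. The high-dose call held in all 17 alternatives that tested the gene. The low-dose call was lost without V2, V3, L1 or L2 (limma adjusted p = 0.0758, 0.0863, 0.0869 and 0.0563), with quantile normalisation (0.116) and with no filter (0.0689).

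Csf1 had the highest level of the members in each library. It measured 69.2, 73.6 and 58.1 FPKM in V1 to V3, 93.9, 73.8 and 86.6 FPKM in L1 to L3, and 104, 104 and 125 FPKM in H1 to H3. The 3 groups did not overlap, although L2 was barely above V2. The high-dose log2 difference was 0.72 (SE 0.13, limma adjusted p = 0.00303) and was called in all 18 alternatives. The low-dose difference was 0.34 (SE 0.13, limma adjusted p = 0.0611) and was called without L2 (0.43, limma adjusted p = 0.0245).

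Il6, whose product drives the acute-phase response, measured 0.694, 0.552 and 0.358 FPKM in V1 to V3 (82, 67 and 45 reads), 2.37, 1.16 and 0.770 FPKM in L1 to L3, and 3.02, 1.3 and 1.27 FPKM in H1 to H3. Digoxin values were all above vehicle values, and L1 and H1 were well above the other libraries of their groups. The high-dose log2 difference was 0.85 (SE 0.29, limma adjusted p = 0.0378), and 1.55 with a pseudocount of 0.1 (limma adjusted p = 0.0246). That call was lost without V1, V2, V3 or H1 (limma adjusted p = 0.0653, 0.0882, 0.113 and 0.0868), with quantile normalisation (0.107) and with no filter (0.0977). The low-dose difference was 0.62 (SE 0.29, limma adjusted p = 0.111), and was called without L2 and H1 together (0.0498).

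Csf3 measured 10.5, 7.88 and 2.73 FPKM in V1 to V3, 6.37, 4.48 and 0.817 FPKM in L1 to L3, and 3.13, 1.57 and 3.51 FPKM in H1 to H3. The groups overlapped, with V3 and L3 well below the other libraries of their groups. Its log2 difference was −0.79 at the low dose (95% interval −2.08 to 0.49, limma adjusted p = 0.279) and −1.0 at the high dose (−2.28 to 0.29, limma adjusted p = 0.177). These intervals include a large decrease as well as no difference.

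Il11, whose product acts mostly on stromal and epithelial cells, measured 0.840, 1.12 and 0.714 FPKM in V1 to V3, 2.28, 1.25 and 1.11 FPKM in L1 to L3, and 2.01, 1.11 and 1.74 FPKM in H1 to H3. V2 was level with the lowest digoxin libraries, L3 and H2. The log2 difference was 0.41 (95% interval −0.06 to 0.87, limma adjusted p = 0.135) at the low and 0.46 (0.001 to 0.92, limma adjusted p = 0.0917) at the high dose. Lif, the gene of leukaemia inhibitory factor, measured 3.94, 3.57 and 1.58 FPKM in V1 to V3, 2.26, 3.35 and 1.34 FPKM in L1 to L3, and 4.34, 1.61 and 2.41 FPKM in H1 to H3. Its groups overlapped widely, with log2 differences of −0.27 (95% interval −1.05 to 0.51) and −0.10 (−0.88 to 0.69).

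**Figure D2:**
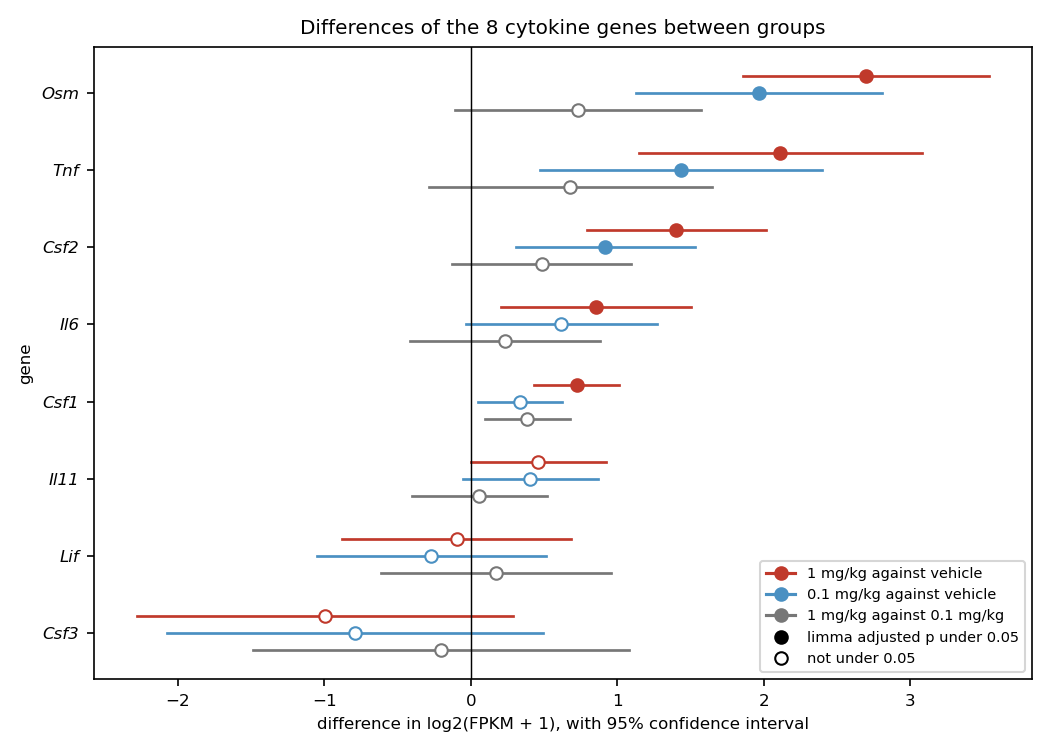
Log2(FPKM + 1) difference between groups (horizontal axis) for each cytokine gene, with its 95% interval from limma; filled points have an adjusted p under 0.05. Osm, Tnf and Csf2 are filled at both doses against vehicle, and no point is filled for high against low dose.

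No member was called between the doses (0 of 8 in limma, against 0.0146% of tested genes, and 0 in limma-voom). At an unadjusted p under 0.05 each tool had 1 member, and in limma this was Csf1 (log2 0.39, SE 0.13, unadjusted p = 0.0147, limma adjusted p = 0.253). Csf1 was also the 1 member with all high-dose values above all low-dose values, as in 6.05% of tested genes. 11% of tested genes and 0 members lay wholly below. Mean FPKM at the high dose was 1.75 times that at the low dose for Osm, 1.99 times for Tnf (1.11 without H1) and 1.69 times for Csf2. The log2 differences were 0.73 (95% interval −0.11 to 1.57), 0.68 (−0.28 to 1.64) and 0.48 (−0.13 to 1.1). H1 carried much of these: without it they were 0.41 for Osm, 0.14 for Tnf and 0.23 for Csf2, and without H1 and L2 they were 0.29, −0.10 and 0.31.

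**Figure D3:**
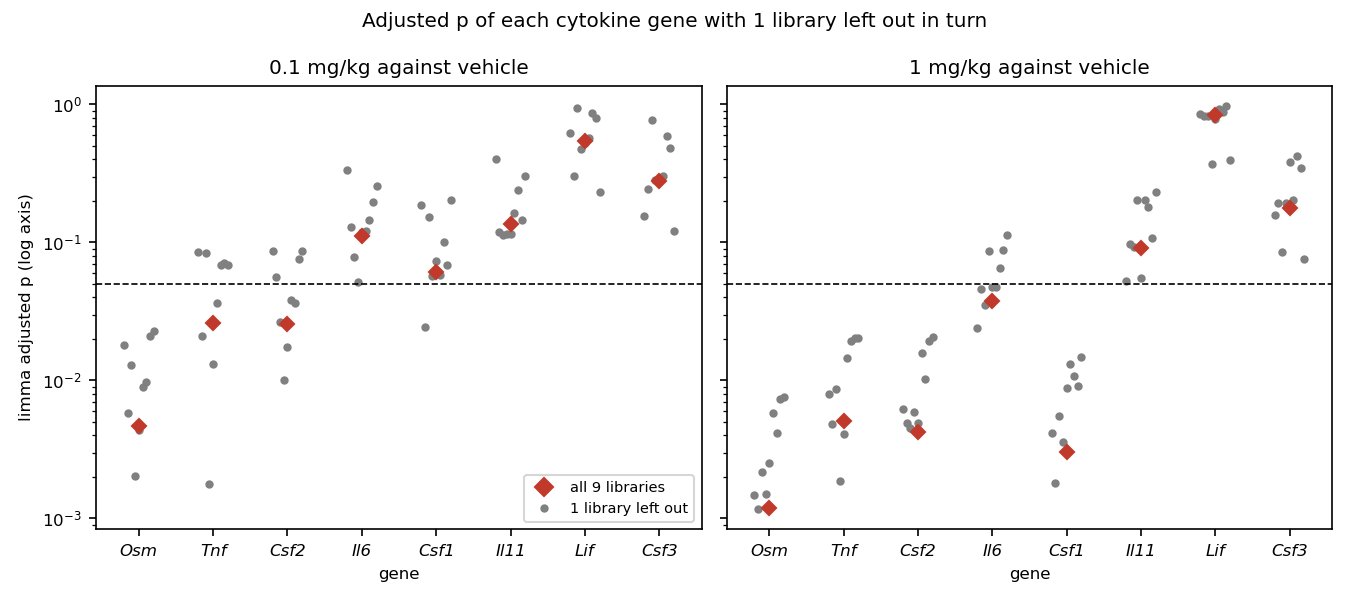
Limma adjusted p (log axes) of the cytokine genes with all 9 libraries and with each library left out in turn, for both doses against vehicle; the dashed line marks 0.05. Osm stays under the line at both doses, while 5 fits for Tnf and 4 for Csf2 lie above it at the low dose.

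The order of levels differed between groups. In vehicle tumours mean FPKM ran from Csf1 (67.0) through Csf3 (7.04), Lif (3.03), Osm (2.55), Tnf (1.35), Il11 (0.892) and Il6 (0.534) to Csf2 (0.378), and Csf3 and Lif, Lif and Osm, and Il6 and Csf2 overlapped. In low-dose tumours it ran Csf1 (84.8), Osm (13.02), Tnf (5.50), Csf3 (3.89), Lif (2.32), Csf2 (1.63), Il11 (1.55), Il6 (1.43), where Csf1 and Osm, and Osm and Tnf, were separate and the other neighbours overlapped. In high-dose tumours it ran Csf1 (111), Osm (22.7), Tnf (10.9), Lif (2.79), Csf2 (2.75), Csf3 (2.74), Il6 (1.86), Il11 (1.62). There Csf1 was separate from Osm and Tnf from Lif, and all other neighbours overlapped.

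Within libraries, Csf3 exceeded Osm in each vehicle library and Osm exceeded Csf3 in each digoxin library. The FPKM ratio of Osm to Csf3 was 0.362, 0.290 and 0.569 in V1 to V3, 3.01, 2.30 and 11.7 in L1 to L3, and 10.8, 8.69 and 5.89 in H1 to H3. The ratio of Csf2 to Csf3 was 0.0611, 0.0381 and 0.0707, then 0.325, 0.416 and 1.17, then 1.31, 1.02 and 0.721. Neither ratio overlapped between vehicle and digoxin. Both were chosen after the values were seen and carry no test.

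Some members have another cytokine gene beside them in the RefSeq annotation of GRCm38.p6. Osm and Lif are neighbours on chromosome 11, and the FPKM ratio of Osm to Lif was 0.968, 0.640 and 0.987 in V1 to V3, 8.47, 3.08 and 7.17 in L1 to L3, and 7.82, 8.44 and 8.59 in H1 to H3. Tnf lies between Ltb and Lta, the lymphotoxin genes, on chromosome 17. Ltb measured 2.44, 2.45 and 2.65 FPKM in V1 to V3, 5.59, 4.30 and 6.11 FPKM in L1 to L3, and 1.34, 3.85 and 2.75 FPKM in H1 to H3. It was called higher at the low dose (log2 0.84, limma adjusted p = 0.0223) and was level with vehicle at the high dose (−0.008, limma adjusted p = 0.981). Its results in the alternative analyses are not reported here. Lta reached at most 0.573 FPKM and was not tested, and Il3, beside Csf2, was listed at 0 in every library but V2 (0.0636 FPKM).

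The promoter windows of the called members are printed so that their upstream letters can be compared. They are from RefSeq's table for GRCm38.p6 (6 of the 8 members have an entry; Osm and Csf3 do not) and hold the 250 bases before the start, 5′ to 3′ on the gene's strand. Capitals mark matches, on either strand, to AP-1 (TGANTCA), CRE (TGACGTCA), STAT (TTCNNNGAA), C/EBP (TTGCNNAA) or NF-κB. Such matches occurred in 6.75%, 1.55%, 7.02%, 9.56% and 7.25% of 32851 windows of this length.
Csf1 (chr3:107760470-107760719, minus strand): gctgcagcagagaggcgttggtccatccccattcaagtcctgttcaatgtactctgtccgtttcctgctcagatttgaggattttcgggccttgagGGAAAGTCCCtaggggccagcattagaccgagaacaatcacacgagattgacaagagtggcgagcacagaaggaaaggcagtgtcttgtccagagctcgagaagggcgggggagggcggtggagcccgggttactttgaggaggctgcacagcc
Csf2 (chr11:54249900-54250149, minus strand): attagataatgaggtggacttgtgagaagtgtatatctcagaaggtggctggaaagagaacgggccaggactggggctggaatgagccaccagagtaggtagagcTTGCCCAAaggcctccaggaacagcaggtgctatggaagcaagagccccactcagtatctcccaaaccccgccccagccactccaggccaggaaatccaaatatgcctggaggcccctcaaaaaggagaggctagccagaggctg
Il6 (chr5:30012864-30013113, plus strand): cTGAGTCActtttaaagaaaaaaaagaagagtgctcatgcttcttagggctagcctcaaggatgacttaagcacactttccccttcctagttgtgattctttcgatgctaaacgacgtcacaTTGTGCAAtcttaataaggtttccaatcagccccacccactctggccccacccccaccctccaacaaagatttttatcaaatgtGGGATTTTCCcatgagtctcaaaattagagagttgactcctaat
Tnf (chr17:35202008-35202257, minus strand): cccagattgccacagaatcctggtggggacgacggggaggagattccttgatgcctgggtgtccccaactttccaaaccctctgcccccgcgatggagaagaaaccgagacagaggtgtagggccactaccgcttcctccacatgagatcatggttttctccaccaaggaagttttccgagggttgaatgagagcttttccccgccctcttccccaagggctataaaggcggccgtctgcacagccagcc
The Il6 window held 3 matches, from the far end AP-1, C/EBP and NF-κB. The Csf1 window held 1 NF-κB match and the Csf2 window 1 C/EBP match, and the Tnf window held none. Of the members that were not called, Lif had AP-1 and NF-κB matches and 1 of the 2 Il11 windows had an AP-1 match. A match describes letters only.

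Genes of the GM-CSF-binding chain and of the G-CSF and TNF receptors rose, and the receptor chain for oncostatin M fell at the low dose. Of 12 receptor genes, all tested, 6 were called higher and 1 lower at the low dose and 5 higher and 1 lower at the high dose, with median log2 differences of 0.48 and 0.43. Of all tested genes 21.6% were called higher and 20.7% lower at the low dose, and 20.7% and 25.2% at the high dose, with medians of 0.02 and −0.04. Lifr, not called at either dose, stayed below 1 FPKM in every vehicle library and was tested only because of its digoxin values. In bulk tumour RNA, a change in cell numbers and a change in RNA per cell cannot be told apart. Csf2ra, the GM-CSF-binding chain, went from 20.5 ± 0.826 FPKM with vehicle to 35.7 ± 6.02 at the low and 32.8 ± 2.16 at the high dose (SD, n = 3), log2 0.76 and 0.65, called in all 18 alternatives. Csf2rb, the gene of the signalling chain for GM-CSF, was called at neither dose (0.47 and 0.46). Its relative Csf2rb2 (0.77 and 0.68, both called) is near-identical, so the split of reads between them is uncertain. The high-dose call of Csf2rb2 was lost without V3 (limma adjusted p = 0.0517), while Csf2rb was called at the low dose without L2 (0.0355) and at the high dose without L1 (0.0161) or with the 2 groups alone (0.0208).

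Csf3r, the G-CSF receptor of neutrophils, measured 7.59, 6.55 and 4.30 FPKM in V1 to V3, 21.8, 11.9 and 11.2 FPKM in L1 to L3, and 10.2, 12.6 and 17.1 FPKM in H1 to H3. It rose at both doses (log2 1.13 and 1.0, limma adjusted p = 0.0141 and 0.0199), with no overlap with vehicle, whereas its ligand was not called. Both calls were lost without V3 (limma adjusted p = 0.0546 and 0.0739), and the high-dose call also without H3 (0.0703) and with no filter (0.0545). Csf1r, the M-CSF receptor of macrophages, measured 43.1, 43.9 and 43.4 FPKM in V1 to V3, 54.1, 38.7 and 55.0 FPKM in L1 to L3, and 30.3, 38.4 and 30.2 FPKM in H1 to H3. It was called lower at the high dose at the edge of the threshold (log2 −0.40, limma adjusted p = 0.0498). Leaving out V1, V2, V3, L1, L3, H1 or H3 ended that call (limma adjusted p from 0.0517 to 0.145), as did no filter (0.11). The low-dose difference of 0.16 was not called, but was without L2 (0.32, limma adjusted p = 0.0401).

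Tnfrsf1a, the gene of the broadly expressed TNFR1, went from 55.4 ± 1.24 FPKM to 79.0 ± 10.3 and 78.0 ± 8.70 (SD, n = 3), log2 0.50 and 0.48, called in all 18 alternatives. Tnfrsf1b, the gene of the leukocyte receptor TNFR2, measured 14.4, 12.5 and 12.99 FPKM in V1 to V3, 37.4, 16.1 and 23.4 FPKM in L1 to L3, and 35.3, 24.2 and 23.9 FPKM in H1 to H3. Its log2 differences of 0.82 and 0.99 were both called, and L1 and H1 were the highest of their groups, as they were for Tnf. The low-dose call was lost without V1, V2, V3, L1 or L3 (limma adjusted p from 0.0713 to 0.103), with no filter (0.0925) and after rescaling to TPM (0.0561). The high-dose call was lost without V2 (0.0559) or V3 (0.0539).

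The gp130 gene Il6st measured 12.6 ± 1.08, 11.6 ± 1.16 and 12.999 ± 2.41 FPKM in vehicle, low-dose and high-dose tumours (SD, n = 3), with log2 differences of −0.11 (95% interval −0.42 to 0.20) and 0.03 (−0.28 to 0.34). Il6ra, which binds interleukin-6, differed by 0.11 and 0.13, not called, but was called at the high dose without H1 (0.26, limma adjusted p = 0.0274). Osmr, the partner chain for oncostatin M, measured 3.02, 3.61 and 3.26 FPKM in V1 to V3, 1.68, 2.62 and 1.12 FPKM in L1 to L3, and 2.46, 1.92 and 2.12 FPKM in H1 to H3. Every digoxin value was below every vehicle value, while Osm itself was above. The difference was called at the low dose (log2 −0.65, limma adjusted p = 0.0216) and not at the high dose (−0.44, 0.0759). Without V2, V3, L1 or L3 the low-dose call was lost (limma adjusted p = 0.0751, 0.0623, 0.0635 and 0.0646), as with no filter (0.0568), and the high-dose difference was called without L2 (0.0206) or L3 (0.0365) and in a fit of the 2 groups alone (0.0168).

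The FPKM ratio of Osm to Osmr was 1.26, 0.634 and 0.477 in V1 to V3, 11.4, 3.94 and 8.57 in L1 to L3, and 13.8, 7.10 and 9.75 in H1 to H3. Il11ra1, the interleukin-11 receptor gene, was called higher at the low dose (log2 0.74, limma adjusted p = 0.00898, in all 18 alternatives). At the high dose it differed by 0.40 (limma adjusted p = 0.0772), with H1 at the vehicle level, and was called without H1 (0.60, limma adjusted p = 0.00319). Lifr, the LIF receptor gene, was at 0.755 ± 0.0702 FPKM in vehicle tumours and differed by 0.33 and 0.38, not called, but was called at the high dose without H1 (0.60, limma adjusted p = 0.0182).

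**Figure D4:**
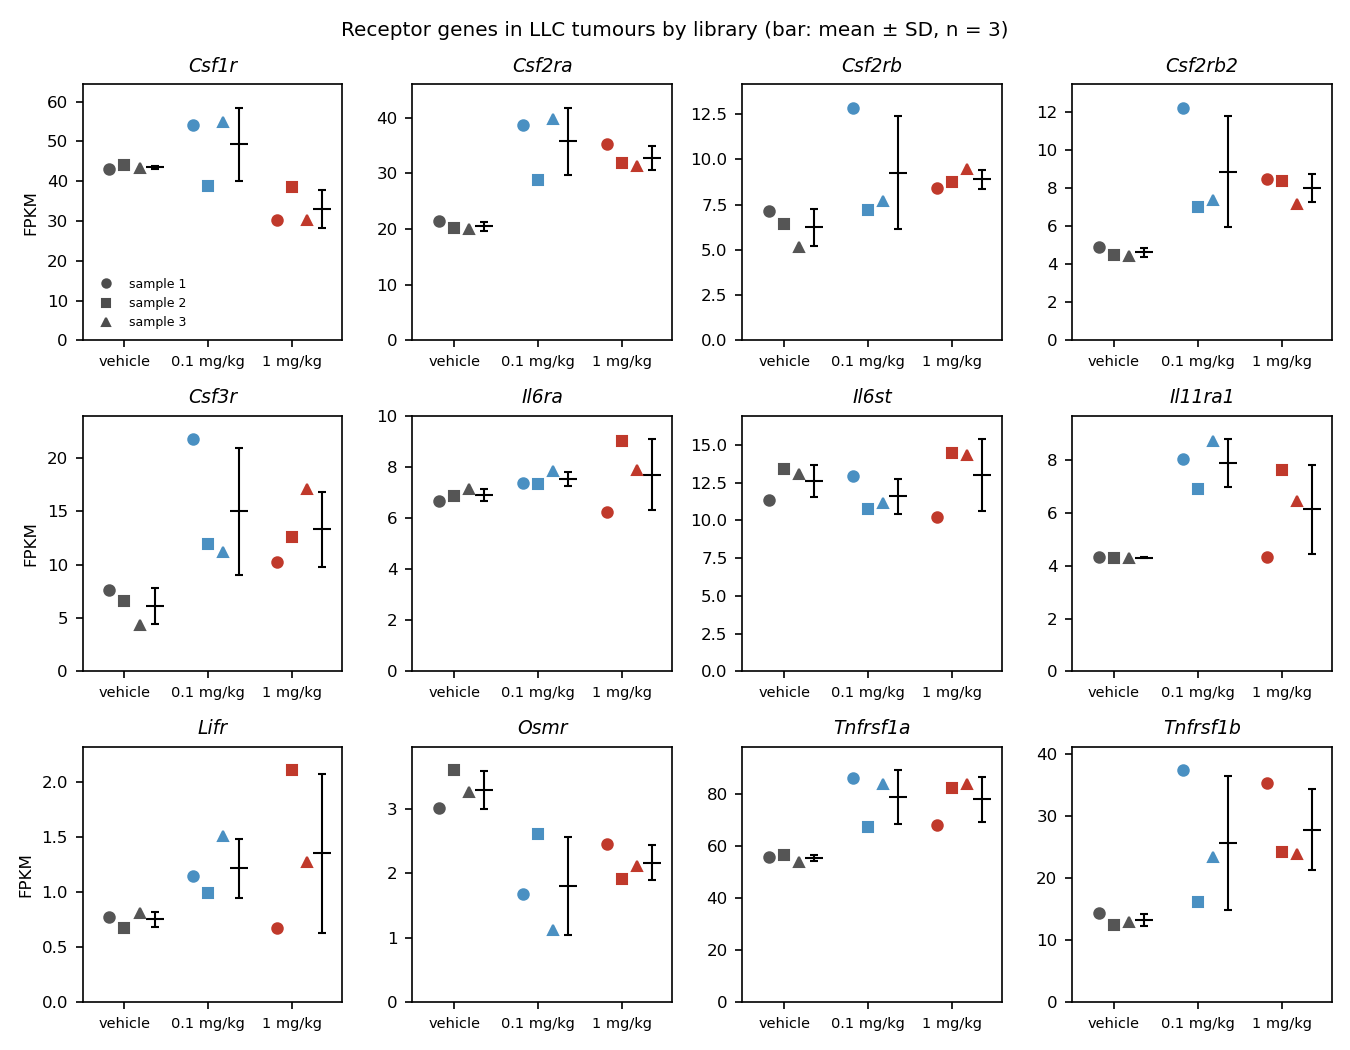
FPKM of the 12 receptor genes (vertical axes, each from 0) in the 3 libraries of each group, with the group mean ± SD. Digoxin libraries lie above vehicle for Csf2ra, Csf2rb, Csf2rb2, Csf3r, Il11ra1, Tnfrsf1a and Tnfrsf1b, and below vehicle for Osmr. The lowest digoxin library is barely above vehicle for Csf2rb (L2) and Il11ra1 (H1).

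Related ligands came from a list of 16 genes. The table held 15, and 10 of those were tested, of which 5 were called higher and 0 lower at the low dose and 5 higher and 1 lower at the high dose (median log2 0.68 and 0.35), where 42.2% and 45.9% of all tested genes were called. Il27 and Il12a were below 1 FPKM in every vehicle library and were tested only because of their digoxin values. Il27, a subunit of interleukin-27, went from 0.447 ± 0.283 FPKM to 3.59 ± 0.700 and 1.83 ± 0.329 (SD, n = 3), log2 1.67 and 0.98, called in all 17 alternatives that tested it. Clcf1, a ligand of the gp130 group, rose by 0.63 and 0.71. At the low dose the Clcf1 call was lost without V1, V3 or L1 and with no filter (limma adjusted p up to 0.0661).

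Il34 encodes the other ligand of the M-CSF receptor and, unlike Csf1, was lower with digoxin. It fell by 0.49 on the log2 scale at the high dose (limma adjusted p = 0.0176), a call lost without V1 (0.0627), V2 (0.0552) or H3 (0.0557). Its low-dose difference of −0.26 was called only after rescaling to TPM (−0.39, limma adjusted p = 0.042). Kitl, the stem cell factor gene, rose at the high dose by 0.53 in all 18 alternatives and differed by 0.22 at the low dose (limma adjusted p = 0.131). Il12a, a subunit of interleukin-12, was listed at 0 in V2 and V3 and at 0.0464 FPKM in V1, and measured 1.26, 0.263 and 0.677 FPKM in L1 to L3 and 0.454, 1.11 and 1.17 FPKM in H1 to H3. Both doses were called (limma adjusted p = 0.0358 and 0.0157). The low-dose call was lost without V1, V2, V3, L1 or L3, with quantile normalisation or no filter (limma adjusted p from 0.0751 to 0.162), and the high-dose call without V3, H2 or H3 (up to 0.0577).

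Genes known to respond to gp130, TNF and NF-κB signals were mostly called higher. Of 22 listed genes 21 were tested, with 13 called higher and 1 lower at the low dose and 15 higher and 2 lower at the high dose (median log2 0.85 and 1.03), where 21.6% and 20.7% of all tested genes were called higher. Nfkbiz, an NF-κB cofactor, rose by 1.05 and 2.17, and Cebpb, an acute-phase transcription factor, by 1.05 and 1.67. Saa3, an acute-phase protein gene, rose by 2.74 and 2.38, and Timp1, a protease inhibitor gene, by 1.03 at each dose. These 4 genes were called in all 18 alternatives at both doses. Junb, an AP-1 subunit, rose by 0.85 and 1.75, and its low-dose call was lost without V2 (limma adjusted p = 0.0502) or V3 (0.0562).

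Tnfaip3, which encodes the NF-κB inhibitor A20, measured 2.43, 2.50 and 2.28 FPKM in V1 to V3, 8.81, 4.24 and 4.02 FPKM in L1 to L3, and 32.8, 9.0 and 13.3 FPKM in H1 to H3. L1 and H1 were again the highest of their groups. It rose at the high dose (log2 2.31, limma adjusted p = 0.0033). The low-dose difference of 0.90 was not called (limma adjusted p = 0.11), but was in a fit of the 2 groups alone (0.0242) and without H1 (0.0196).

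Regulators of AU-rich messages were called in both directions. All 10 were tested, with 2 higher and 3 lower at the low dose, near the shares of all tested genes (21.6% higher, 20.7% lower), and 4 higher and 3 lower at the high dose (20.7% and 25.2%). Zfp36 encodes tristetraprolin, which sends messages such as that of Tnf to decay. It measured 14.9, 12.5 and 10.7 FPKM in V1 to V3, 74.4, 32.9 and 33.0 FPKM in L1 to L3, and 131, 71.7 and 80.6 FPKM in H1 to H3. The digoxin values all lay above the vehicle range, and the log2 differences of 1.71 and 2.76 (limma adjusted p = 0.00533 and 0.000772) were called in all 18 alternatives. Arid5a, whose product stabilises the Il6 message, rose by 0.92 and 0.66 in all 17 alternatives that tested it, and Zfp36l1, a relative of Zfp36, rose by 0.59 at the high dose and differed by 0.17 at the low dose.

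Khsrp, a decay factor gene, fell by 0.37 and 0.25, and Elavl1, the gene of the stabilising protein HuR, fell by 0.24 and 0.33 on the log2 scale. The high-dose Khsrp call was lost without V1, V2, V3, H2 or H3 and with no filter (limma adjusted p up to 0.119). The low-dose Elavl1 call was lost without V1, V2, V3, L1, L3 or H3 (up to 0.103). Rc3h1, the roquin-1 gene, fell by 0.34 at the low dose, which was lost without V2, V3 or L3 (up to 0.0832).

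Genes linked to the shedding of TNF from the membrane, proteases and their helpers among them, were called in both directions. Of 6 genes 5 were tested, with 1 higher and 1 lower at the low dose and 2 higher and 1 lower at the high dose, where 42.2% and 45.9% of all tested genes were called. Adam17, the TNF-releasing protease gene, went from 23.1 ± 1.64 FPKM to 17.9 ± 1.87 and 16.3 ± 2.68 (SD, n = 3), log2 −0.35 and −0.48, both called. The low-dose call was lost without V1, V2, V3, L1, L3 or H2 and with no filter (limma adjusted p up to 0.158), and the high-dose call without V2 (0.0531) or H3 (0.0501). Rhbdf2, which helps ADAM17 reach the cell surface, rose by 0.49 in all 18 alternatives at the low dose. At the high dose it rose by 0.38, a call lost without V3, H2 or H3, with no filter and after rescaling to TPM (limma adjusted p up to 0.0908). Rhbdf1, its relative, was called at the high dose (0.44, limma adjusted p = 0.0482), but in only 5 of 18 alternatives and, of the 9 fits without 1 library, only in that without H1. Adam10 and Frmd8 were not called, except Frmd8 at the high dose without H1 (0.26, limma adjusted p = 0.0103) and at either dose without L2 and H1.

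Markers of several cell types differed between the same groups. Summed FPKM of 12 neutrophil markers, Csf3r among them, was 81.8 to 224 in vehicle, 163 to 837 in low-dose and 528 to 1246 in high-dose tumours, with 7 and 10 of 12 called higher and Ly6g at 0 in 1 library. Ly6g, Camp and Ngp, called at both doses, were tested only because of their digoxin values. S100a8 and S100a9 made up most of the neutrophil sum (193 and 425 of 837 FPKM in L1). Mean Mmp9 was lower with digoxin (33.2 FPKM with vehicle, 21.2 at the low and 26.9 at the high dose). Of all tested genes 21.6% were called higher and 20.7% lower at the low dose, and 20.7% higher and 25.2% lower at the high dose. The sum of 12 macrophage markers, Csf1r among them, was 1228 to 1319, 1624 to 2509 and 987 to 1641, with 6 of 12 called higher at the low dose and 5 higher and 2 lower at the high dose. The sum of 12 T cell markers was 23.5 to 29.2, 48.1 to 83.7 and 10.7 to 36.5, with 8 of the 9 tested called higher at the low dose and 1 lower at the high dose. H1 had the highest Osm, Tnf, Csf2 and Il6 of all libraries. It also had the lowest macrophage and T cell sums of all libraries, and the lowest neutrophil sum of its group. C1qa, C1qb and C1qc made up most of the macrophage sum, and macrophage markers did not move together in H1. There C1qa (256 FPKM) was at its lowest of all libraries and Fcgr1 (53.7 FPKM) at its highest.

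Mast cell and basophil markers (11) summed to 29.3 to 36.1, 48.3 to 79.4 and 20.8 to 106 FPKM, with 0 and 1 of 9 tested called higher. For this and the next lists, the shares of all tested genes were 21.6% higher and 20.7% lower at the low dose. At the high dose they were 20.7% higher and 25.2% lower. Fibroblast markers (10) summed to 989 to 1103, 357 to 695 and 358 to 604 FPKM, with 3 higher and 4 lower at the low dose and 1 higher and 5 lower at the high dose. Endothelial markers (10) summed to 63.4 to 88.6, 58.0 to 86.0 and 32.9 to 102 FPKM, with 0 called. Skeletal muscle markers (10) summed to 32.5 to 103, 154 to 317 and 51.4 to 1101 FPKM, with 3 of 8 tested called higher at each dose and Tnnc2 at 0 in 5 libraries. The muscle gene Myh1, called at the low dose only, and the basophil gene Mcpt8, not called, stayed below 1 FPKM in every vehicle library. Both were tested only because of their digoxin values. The part of these cells in the cytokine values was not tested.

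Profiles most like those of the members were found from the mean absolute difference in centred log2(FPKM + 1) over the 9 libraries. Osm was nearest to Ccl3 (0.159), Zfp36 (0.175), Ccl4 (0.176) and Atf3 (0.217). Tnf was nearest to Sprr2g (0.185), one of several near-identical genes, then Csrnp1 (0.188), Slc22a4 (0.218) and Il10 (0.232). For Csf2 the nearest were Fth1 (0.14), Pim1 (0.153), Slc16a3 (0.156) and Sprr1a (0.156), and for Il6 Klf11 (0.107), Sh2b2 (0.114), Plaur (0.128) and Card19 (0.129). Csf1 lay nearest to Sec23ip (0.087), Rapgef2 (0.092), Por (0.093) and Hmgn1 (0.093), and Il11 to Cd244a (0.049), Creb3l1 (0.085), Zc3h12a (0.094) and Soat1 (0.102). Lif lay nearest to Prdx6 (0.151), Pdlim7 (0.165), Snord89 (0.179) and Cdkn1a (0.185). The nearest genes to Csf3 were further away: Mir1943 (0.34), Foxf2 (0.437), Tuba4a (0.437) and Rbbp7 (0.441).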

How the data were processed

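The authors deposited 1 table of FPKM per gene for 9 samples, each sample in its own column. The submitters' processing notes list HISAT2 2.2.1 and fastp 0.22.0, and give GRCh38, a human build, although the genes are mouse genes; the counter is not given in the sources used here, nor is an annotation. Libraries were poly(A) selected and read in pairs of 150 bp, per the labels' protocols.

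Log2(FPKM + 1) was fitted with limma 3.58.1 (R 4.3.3), with a mean for each group over all 9 samples, a mean-variance trend, 6 residual and 2.71 prior degrees of freedom, two-sided tests and Benjamini-Hochberg adjustment over 13687 genes. Whole reads were recovered from the FPKM steps (tolerance 0.03 reads, 99.9% of tested genes) and used for depth, printed reads and limma-voom. Whether 1 such read is a read or a pair is not stated.

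The members and lists were chosen with earlier results of these data known. Named genes were all members and receptors, up to 6 genes per list by smallest unadjusted p against vehicle, and the 4 nearest profiles, without predicted genes and pseudogenes. Neighbours and ratios were added. A gene that the rule names is not reported here. The 18 alternatives were a pseudocount of 0.1, no filter, a mean of at least 5 FPKM, quantile normalisation, rescaling to TPM, the 2 groups alone, a replicate block, limma-voom, each of 9 libraries left out, and L2 and H1 left out together. A gene with a mean under 5 FPKM had 17. The fit was also run on simulated data with a fixed spread and changes in the high-dose group only. The outcome is not reported here, and no result rests on it. Python 3.11.15, NumPy 2.4.6, pandas 2.3.3 and matplotlib 3.10.9 made the tables and figures.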

Additional observations from a re-analysis of the deposited data

How the results depend on the processing

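The number of members called at the high dose, 5, became 3 when only genes with a mean of 5 FPKM or more were tested (3 of the 8 members), and was 4 to 5 with 1 library left out. At the low dose, 3 became 1 with no expression filter, 5 without L2 and H1, and 1 to 3 with 1 library left out (1 without V2, V3 or L1). Between the doses 0 were called in all 18 alternatives. With the replicate block the counts were 5, 4 and 0, and Il6 was called at the low dose (limma adjusted p = 0.0319). Among the other named genes it ended the high-dose calls of Csf1r, Khsrp, Rhbdf1 and Rhbdf2 and the low-dose calls of Il12a, Elavl1 and Adam17 (limma adjusted p from 0.0537 to 0.0939). Replicate numbers were not taken to pair the samples, since deviations of same-numbered libraries correlated at −0.441 to 0.279.

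Some differences that had not been called changed direction. For Lif at the high dose, leaving out 1 library gave −0.392 to 0.138. Between the doses it gave −0.808 to 0.202 for Csf3, −0.038 to 0.496 for Il6, −0.066 to 0.251 for Il11 and −0.107 to 0.408 for Lif, and leaving out L2 and H1 gave −0.097 for Il6, −0.126 for Il11 and −0.097 for Tnf. For Il6st at the high dose, rescaling to TPM gave −0.055 and leaving out 1 library −0.051 to 0.18. Rescaling to TPM shifted the median of all genes by −0.107 at the low and −0.088 at the high dose. The share of called genes that were higher went from 51.1% to 38.5% and from 45.1% to 37.0%, and was 40.4% and 41.0% with quantile normalisation. With no filter 14.1% and 16.1% of genes were called, in place of 42.2% and 45.9%. The causes were not tested. With 3 libraries a group, intervals of Csf3 and Lif were wide, and Csf2 rested on as few as 8 reads.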

Other observations

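Within a group, members tended to be high or low in the same library. V1 was the highest vehicle library for 5 of 8 members (Csf2, Csf3, Il6, Lif and Osm) and V3 the lowest for 7, all but Tnf. L1 was the highest low-dose library for 7, all but Lif, and L3 the lowest for 6. H1 was the highest high-dose library for 6 (Csf2, Il6, Il11, Lif, Osm and Tnf) and H2 the lowest for 7, all but Il6. The summed neutrophil markers, mostly S100a8 and S100a9, were likewise highest in V1 (224 FPKM) and L1 (837 FPKM), but highest in H3 (1246 FPKM) at the high dose. All members come from the same libraries, and these counts carry no test.

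Tnfsf11, the gene of the osteoclast factor RANKL, was too low to be tested and went the other way from Tnf. It measured 0.570, 0.653 and 0.734 FPKM in V1 to V3, 0.271, 0.250 and 0.124 FPKM in L1 to L3, and 0.0423, 0.0882 and 0.110 FPKM in H1 to H3, so that no 2 groups overlapped.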
